A study of Rattus norvegicus with 8 samples.

Results

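Platelet surface receptors and integrins were followed as 10 genes, Itga2b, Itgb3, Gp1bb, Gp9, Gp5, Gp6, P2ry12, P2ry1, Clec1b and Selp, and a gene was measured where the annotation of the array mapped a probe set to it alone. This found 10 probe sets for 8 of the 10 genes, among 31042 tested probe sets and 14217 named genes. P2ry12 and Selp had 2 probe sets each. Gp1bb was listed only on a probe set shared with another gene, and no probe set was listed for Gp6, so neither has a value here.

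RNA from whole blood of male Wistar rats was measured on Affymetrix rat arrays. High-fat diet (Quick fat) was the food of the rats behind 4 of them, and the same food with 1% mulberry leaf powder that of the other 4. The rats were 7 weeks old when bought, had a week on a normal diet (CE-2) and then ate the test diets for 8 weeks, and blood was taken after a night without food on day 56. Each diet was given to 10 rats, and a normal-diet group of the design was not analysed here. The 4 arrays per diet are labelled as biological replicates, but not whether each holds 1 rat or several, and the p-values measure only how far these samples spread. The blood was homogenised whole, so fewer platelets and less RNA per platelet cannot be told apart in any value below.

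Platelets have no nucleus and carry transcripts made by their parent cell, the megakaryocyte. At an injured vessel wall the GP Ib-IX-V complex, which contains the products of Gp1bb, Gp9 and Gp5, binds von Willebrand factor and slows the passing platelet. Collagen, podoplanin and ADP then signal through GPVI, CLEC-2 and the P2Y receptors, the integrin made of the Itga2b and Itgb3 chains switches to a state that binds fibrinogen, and P-selectin (Selp) moves from granules to the surface, where it binds leukocytes.

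The deposited values lie on a log2 scale from 5.17 to 15.26, but the arrays hardly differ in them. The median probe set had an SD of 5.31e-06 over the 8 arrays, far less than log2 array values usually show, and the reason is not given in the sources used here. A difference on that scale was therefore not read as a fold change. Values are given in SD units, meaning the value on an array minus the mean of that probe set, divided by its SD over the 8 arrays. Each tested difference is mulberry minus high-fat in these units with its standard error. For each alternative processing the SD was taken anew over the values fitted, and over the arrays kept where arrays were left out. The sizes of differences are therefore not directly comparable between alternatives.

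Of the 10 probe sets, 9 had a higher mean with mulberry, where 52.7% of all tested probe sets did, and 1, of P2ry1, had a lower mean. None of the 10 passed the limma test at an adjusted p of 0.05, nor did any of the 31042 probe sets (0%). At an unadjusted p under 0.05 there were 0 of the 10 and 1352 of all (4.36%). The median difference was 0.65 SD units over the 10 probe sets and 0.06 over all tested. With 1 probe set per gene, 7 of 8 genes had the higher mean and the median was 0.64. After quantile normalization the 10 split into 4 higher, 2 lower and 4 at exactly 0, where 28.1% of all tested probe sets were higher. That method keeps only the rank of a probe set on each array. Where the rank is the same on all arrays, the difference is exactly 0 whatever the deposited values. A 0 after quantile normalization, here and below, therefore does not show that a difference vanished. After each array was centred on its median, 9 of the 10 were higher with a median of 1.10, but so were 96.9% of all tested, with a median of 1.15. Centring shifts all probe sets of an array alike. The mean array median differed by -3.45e-05 log2 (mulberry minus high-fat), more than the SD of the median probe set. Counts and medians after centring, here and below, therefore cannot show whether a list stands apart from the table.

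A pair of arrays stood apart in these genes. Mulberry replicate 4 was the highest array for 8 of the 10 probe sets, and high-fat replicate 4 was the lowest for 7. Averaged over the 10 probe sets, mulberry replicate 4 stood at 1.44 SD units and high-fat replicate 4 at -0.88, with the other 6 arrays between -0.38 and 0.32. Over all 31042 probe sets the same 2 arrays averaged -0.05 and -0.08. Without both of them, 6 of the 10 probe sets had a higher mean with mulberry and 4 a lower one, and the median difference was 0.34. The 2 arrays were picked from these same values for standing at opposite ends. Leaving them out had to narrow the gap between the diet means wherever both stood at those ends. Results without them, here and below, are a description and no independent check.

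**Figure D1:**
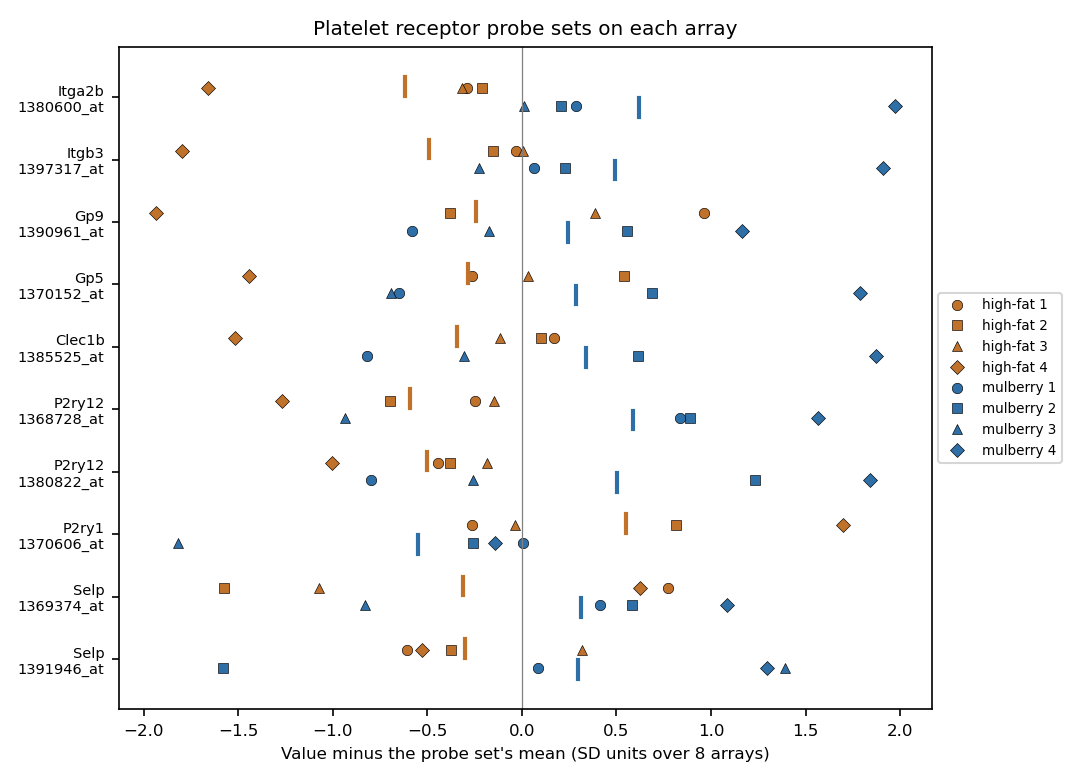
Value of each receptor or integrin probe set on each array, in SD units from its own mean over 8 arrays, with the high-fat arrays in orange above and the mulberry arrays in blue below. Marker shapes give the replicate and short vertical bars the diet means. Mulberry replicate 4 lies at the right in 8 of 10 rows and high-fat replicate 4 at the left in 7.

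Itga2b was the 1 gene of the 8 whose arrays did not overlap between the diets. It encodes the alpha-IIb chain of the fibrinogen receptor, a chain made almost only in the megakaryocyte lineage. Its probe set, 1380600_at, had deposited log2 values of 10.318963, 10.319007, 10.318949 and 10.318224 in high-fat replicates 1 to 4, and of 10.319276, 10.319232, 10.319125 and 10.320183 in mulberry replicates 1 to 4. All 4 mulberry values lay above all 4 high-fat values, although the lowest mulberry array and the highest high-fat array were close. In SD units the high-fat arrays stood at -0.29, -0.21, -0.32 and -1.66, and the mulberry arrays at 0.29, 0.21, 0.01 and 1.97. The means were -0.62 ± 0.70 and 0.62 ± 0.91 (SD, n = 4 each), a difference of 1.24 ± 0.57 (SE). The two-sided exact permutation p was 0.0286, the smallest that 4 arrays against 4 can give, and the limma adjusted p over all probe sets was 1. Groups that do not overlap were seen in 1 of the 10 probe sets and in 2.52% of all tested. The difference was 0 after quantile normalization, and 1.69 without both arrays numbered 4. That 1.69 is in the smaller SD of the arrays kept, so it is not a rise over 1.24.

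Itgb3 encodes the beta-3 chain that pairs with alpha-IIb. The high-fat arrays of its probe set, 1397317_at, stood at -0.03, -0.15, 0.01 and -1.80, and the mulberry arrays at 0.06, 0.23, -0.23 and 1.91. The diets overlapped through mulberry replicate 3, which lay below 3 of the high-fat arrays, and the 6 arrays other than the pair numbered 4 stayed between -0.23 and 0.23. The difference was 0.99 ± 0.65 (SE, exact permutation p = 0.171, limma adjusted p = 1). Without both arrays numbered 4 it was 0.49, in the smaller SD of the arrays kept.

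The measured parts of the GP Ib-IX-V complex overlapped widely between the diets. Gp9 encodes the small IX subunit, which the complex needs to reach the cell surface. Its probe set, 1390961_at, stood at 0.96, -0.38, 0.38 and -1.93 with high-fat and at -0.58, 0.55, -0.17 and 1.17 with mulberry. Without high-fat replicate 4, the lowest, the difference of 0.48 ± 0.74 (SE, exact permutation p = 0.543, limma adjusted p = 1) turned to -0.12. Gp5 encodes the V subunit, a substrate of thrombin. Probe set 1370152_at stood at -0.27, 0.54, 0.03 and -1.44 with high-fat and at -0.65, 0.69, -0.69 and 1.79 with mulberry. Mulberry replicates 1 and 3 lay below 3 of the 4 high-fat arrays. The difference was 0.57 ± 0.73 (SE, exact permutation p = 0.457, limma adjusted p = 1), 0 after quantile normalization, and 0.0885 without mulberry replicate 4, 0.207 without high-fat replicate 4 and 0.86 without mulberry replicate 3.

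Clec1b encodes CLEC-2, the podoplanin receptor, which signals through the kinase Syk. Its high-fat arrays stood at 0.17, 0.10, -0.11 and -1.52 and its mulberry arrays at -0.82, 0.61, -0.30 and 1.87 for probe set 1385525_at. As in Gp5, mulberry replicates 1 and 3 were lower than 3 of the high-fat arrays. The difference was 0.68 ± 0.71 (SE, exact permutation p = 0.4, limma adjusted p = 1), and 0 after quantile normalization. It was 0.241 without mulberry replicate 4, 0.338 without high-fat replicate 4 and 1.05 without mulberry replicate 1. Without both arrays numbered 4, the differences of Gp9, Gp5 and Clec1b turned to -0.65, -0.55 and -0.46.

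The ADP receptor genes had diet differences of opposite sign, a contrast that was not tested. P2ry12 encodes the Gi-coupled receptor that sustains aggregation and is the target of clopidogrel, and its 2 probe sets lay on the same side of their means on 7 of 8 arrays. Probe set 1368728_at stood at -0.25, -0.70, -0.15 and -1.27 with high-fat and at 0.84, 0.89, -0.94 and 1.57 with mulberry. Mulberry replicate 3 alone overlapped the high-fat range, and the difference was 1.18 ± 0.59 (SE, exact permutation p = 0.114, limma adjusted p = 1), or -0.05 after quantile normalization. Probe set 1380822_at stood at -0.45, -0.38, -0.18 and -1.002 with high-fat and at -0.80, 1.23, -0.26 and 1.84 with mulberry. Here mulberry replicate 1 as well as replicate 3 fell within the high-fat range, and the difference was 1.01 ± 0.64 (SE, exact permutation p = 0.229, limma adjusted p = 1). Mulberry replicate 1 was the array on which the 2 probe sets took opposite sides.

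P2ry1 encodes the Gq-coupled ADP receptor that starts shape change. Its probe set, 1370606_at, stood at -0.27, 0.81, -0.04 and 1.70 with high-fat and at 0.01, -0.26, -1.82 and -0.14 with mulberry. The order of the arrays was unlike that of the other receptors, with high-fat replicate 4 highest and mulberry replicate 3 lowest. The difference was -1.10 ± 0.62 (SE, exact permutation p = 0.2, limma adjusted p = 1), and was negative under each alternative that included this probe set, from -1.28 to -0.51.

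Selp encodes P-selectin, which is stored in platelet alpha granules and is also made by endothelium. Probe set 1369374_at stood at 0.77, -1.58, -1.07 and 0.62 with high-fat and at 0.41, 0.58, -0.83 and 1.09 with mulberry. Probe set 1391946_at stood at -0.61, -0.38, 0.32 and -0.53 with high-fat and at 0.09, -1.58, 1.39 and 1.30 with mulberry. The differences of 0.63 ± 0.72 and 0.60 ± 0.72 (SE, exact permutation p = 0.371 and 0.429, limma adjusted p = 1 for both) were close in size, but the 2 probe sets were on the same side of their means on 3 of 8 arrays. Leaving out 1 array moved the first from 0.245 (without high-fat replicate 2) to 0.99 (without mulberry replicate 3), and the second from 0.261 (without mulberry replicate 3) to 1.47 (without mulberry replicate 2). The first was 0 after quantile normalization and the second 1.07.

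**Figure D2:**
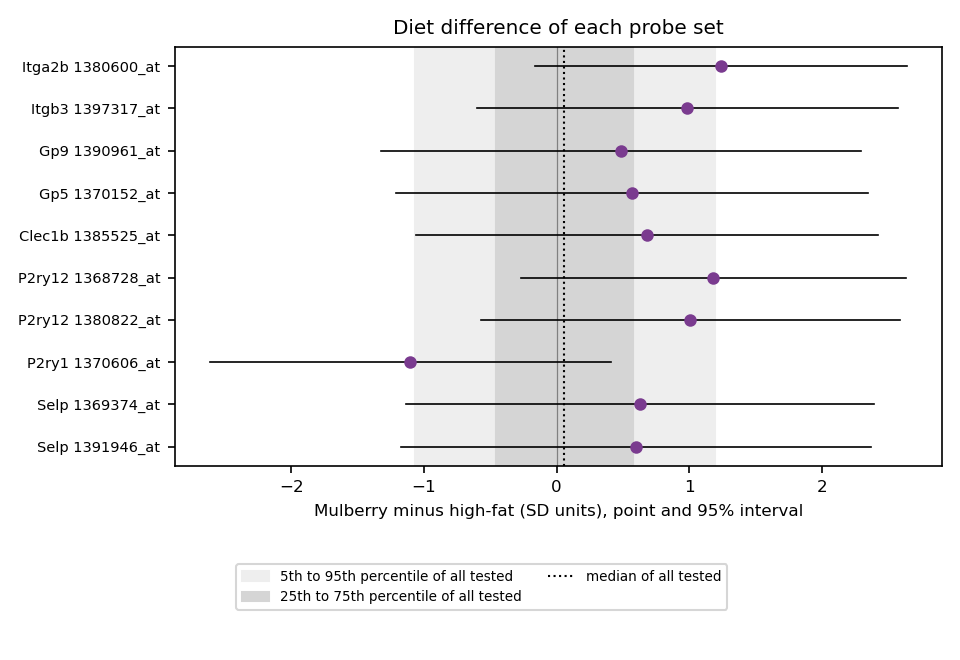
Difference between the diet means (mulberry minus high-fat, SD units) of each probe set, as a point with its 95% interval from 4 arrays per diet. Shading marks the central ranges of all 31042 tested probe sets, whose middle 90% ran from -1.07 to 1.19. All 10 intervals include 0.

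All 10 intervals of the difference held 0, and all were wide. For Itga2b the 95% interval ran from -0.16 to 2.64 SD units, and for Gp9 from -1.32 to 2.29. A missed threshold here does not show that the diets gave equal levels.

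The probe sets also differed in level and in spread. Mean log2 values were 10.32 for Itga2b, 9.77 for Itgb3, 8.11 for Gp9, 7.38 for Gp5 and 10.62 for Clec1b. They were 7.91 and 7.24 for the P2ry12 probe sets, 5.77 for P2ry1, and 5.75 and 6.91 for the Selp probe sets. The array medians were all 6.57, so P2ry1 and the first Selp probe set had values under the middle of the array. Detection calls were not used here, and levels of different probe sets are not comparable as amounts. In 8 of the 10 probe sets the SD over arrays was above that of 90% of all tested probe sets, with 99.1% for Itga2b, 98.9% for Itgb3 and 98.1% for Gp9. The exceptions were the Selp probe sets, at 15.6% and 1.87%. The compression of the deposited values may differ between probe sets, so these ranks describe the table and not the blood.

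Array patterns shared between genes were compared by the mean absolute difference, over the 8 arrays, between the values of a probe set and the scaled mean of the probe sets of the other genes. It was 0.28 SD units for Itgb3, 0.32 for Clec1b, 0.34 for Itga2b, 0.38 for Gp5, 0.45 and 0.40 for P2ry12 and 0.59 for Gp9. The probe sets of Selp were farther away at 0.90 and 0.94, and P2ry1 farthest at 1.18.

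Promoters are shown for the 5 measured genes listed in the RefSeq promoter table used here, which sets the choice, so Itgb3, P2ry12 and Selp are not shown. Itga2b, Gp9, Gp5 and Clec1b had array patterns nearer to the shared one than P2ry1. Megakaryocyte genes are known for GATA and ETS factor sites near their starts. Each line gives the 250 bases before the annotated start, 5′ to 3′ on the strand of the gene, from RefSeq assembly GRCr8. Capitals mark matches on either strand to a GATA motif (the letters GATA with A or T before and A or G after) and to an ETS motif (GGAAG with A or C before).
Itga2b, chr10:87925834-87926083, minus strand: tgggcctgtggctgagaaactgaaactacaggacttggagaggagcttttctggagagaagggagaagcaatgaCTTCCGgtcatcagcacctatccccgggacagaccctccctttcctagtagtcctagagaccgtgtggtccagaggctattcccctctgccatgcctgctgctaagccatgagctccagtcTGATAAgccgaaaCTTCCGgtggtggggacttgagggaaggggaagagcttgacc
Gp9, chr4:121792592-121792841, plus strand: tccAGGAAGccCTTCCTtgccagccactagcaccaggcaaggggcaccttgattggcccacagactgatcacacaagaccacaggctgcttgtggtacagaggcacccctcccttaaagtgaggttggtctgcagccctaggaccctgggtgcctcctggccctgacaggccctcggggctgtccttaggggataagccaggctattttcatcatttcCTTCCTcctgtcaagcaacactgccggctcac
Gp5, chr11:83948257-83948506, plus strand: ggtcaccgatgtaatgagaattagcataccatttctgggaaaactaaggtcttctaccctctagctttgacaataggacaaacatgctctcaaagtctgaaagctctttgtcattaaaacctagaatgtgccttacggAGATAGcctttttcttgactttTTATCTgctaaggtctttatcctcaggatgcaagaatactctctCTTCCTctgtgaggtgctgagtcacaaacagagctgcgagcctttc
Clec1b, chr4:164533859-164534108, plus strand: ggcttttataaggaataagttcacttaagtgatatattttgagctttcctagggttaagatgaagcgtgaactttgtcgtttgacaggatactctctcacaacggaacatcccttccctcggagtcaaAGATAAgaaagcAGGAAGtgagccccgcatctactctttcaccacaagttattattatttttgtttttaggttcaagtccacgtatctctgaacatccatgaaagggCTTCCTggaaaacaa
P2ry1, chr2:147391411-147391660, plus strand: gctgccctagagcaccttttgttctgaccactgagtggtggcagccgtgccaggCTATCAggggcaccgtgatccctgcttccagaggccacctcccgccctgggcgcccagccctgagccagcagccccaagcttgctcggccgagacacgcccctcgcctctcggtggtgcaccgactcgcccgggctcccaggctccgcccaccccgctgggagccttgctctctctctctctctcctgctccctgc
The Itga2b window held a GATA match 55 to 50 bases before the start and ETS matches 42 to 37 and 176 to 171 bases before it. Gp5 and Clec1b also held both kinds, with 2 and 1 GATA matches and 1 and 2 ETS matches. Gp9 held 3 ETS matches and no GATA match, and P2ry1 held 1 GATA match and no ETS match. Among 33469 windows of this length before all gene starts of the table, 27% held a GATA match, 39.4% an ETS match and 9.81% both. Matches overlapped nowhere in the 5 windows. A match is a run of letters and shows no binding.

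Among named genes that were not followed, the profile most like the mean of the 10 probe sets was that of Mmrn1, which encodes the granule protein multimerin, with a mean absolute difference of 0.13 SD units over the 8 arrays. Next came Myl9, a myosin light chain, at 0.18, Nt5c3a at 0.23, the sphingomyelinase gene Smpd1 at 0.23 and Gprasp2 at 0.24. Zmynd10, the kinase gene Ilk, Vwf, the small GTPase gene Rac1 and Ttyh3 lay between 0.25 and 0.27. The median over the 14209 genes compared was 1.06. Of these 10, Mmrn1, Myl9 and Vwf are on the list of platelet granule, eicosanoid and cytoskeleton genes. Mmrn1 differed between the diets by 1.10 ± 0.62 (SE), Vwf by 1.06 ± 0.63 and Myl9 by 0.84 ± 0.68, which for Myl9 became -0.33 without both arrays numbered 4 (limma adjusted p = 1 for all 3). After quantile normalization they were 0.71, 0.53 and 0.48. The 10 genes were picked for following a profile that was itself higher with mulberry. The direction of their differences as deposited therefore comes from the choice and is no independent result.

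Other surface receptors of platelets were measured by 21 genes, of which 14 had higher and 7 lower means with mulberry, and 0 passed the test. The median difference was 0.61, or 0 after quantile normalization and 0.11 without both arrays numbered 4. Itga6, the alpha-6 chain of a laminin receptor, differed by 1.505 ± 0.45 (SE, limma adjusted p = 1). All 4 of its mulberry arrays, from 0.30 to 1.65, lay above all 4 high-fat arrays, from -1.57 to -0.11. The difference was 0 after quantile normalization, and 1.55 without both arrays numbered 4, in the smaller SD of the arrays kept. F11r, the junctional adhesion molecule A, differed by 1.45 ± 0.48 (limma adjusted p = 1) without overlap, and by 1.38 after quantile normalization. P2rx1, the ATP-gated channel of platelets, differed by 1.27 ± 0.56 (0.71 after quantile normalization), and the scavenger receptor gene Cd36 by -1.26 ± 0.57, or -0.63 with the hybridization controls as a covariate (limma adjusted p = 1 for both). Cd36 did not overlap in the lower direction, with mulberry arrays from -1.02 to -0.42 and high-fat arrays from -0.03 to 2.27. High-fat replicate 1 was the array at 2.27.

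Of 37 measured genes that carry signals from these receptors, 17 had higher and 20 lower means, and 0 passed the test. The median difference was -0.12. After quantile normalization 13 were higher, 9 lower and 15 at 0, and after median centring 33 were higher, with a median of 1.18. The receptor phosphatase gene Ptprj differed by 1.26 ± 0.57 (0 after quantile normalization), Prkca by 1.36 ± 0.52 (0.58 after quantile normalization) and the calcium sensor gene Stim1 by 0.97 ± 0.65 (0 after quantile normalization). Plcg2, the phospholipase downstream of GPVI and CLEC-2 and also of B cell receptors, differed by -1.01 ± 0.64, or -0.07 with the hybridization controls as a covariate, and high-fat replicate 4 was its highest array at 2.11 (limma adjusted p = 1 for all 4).

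Granule, eicosanoid and cytoskeleton genes of platelets had higher means in 26 of 31 cases, with 0 past the threshold and a median difference of 0.70. After quantile normalization 16 were higher, 5 lower and 10 at 0, and without both arrays numbered 4 the split was 16 higher to 15 lower. Rab27b, a GTPase of granule transport, differed by 1.51 ± 0.45 (0.48 after quantile normalization) and did not overlap, Cald1 differed by 1.40 ± 0.51, and the tubulin gene Tubb1 by 1.15 ± 0.60 (0 after quantile normalization; limma adjusted p = 1 for all 3). Alox12 stood with them at 1.27 ± 0.56. Pf4 and Ppbp, the abundant chemokine genes of alpha granules, differed by only 0.19 ± 0.76 and 0.30 ± 0.75, and by -0.76 and -0.67 without both arrays numbered 4.

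Transcription factors of the megakaryocyte, many of which also act in erythroid cells, had higher means in 12 of 17 cases, with 0 past the threshold and a median of 0.67, which was 0 after quantile normalization and 0.68 without both arrays numbered 4. Gfi1b differed by 1.30 ± 0.55, Tal1 by 1.25 ± 0.57 without overlap, Lyl1 by 1.08 ± 0.62 and Gata1 by 1.04 ± 0.63. The first 3 were 0 after quantile normalization (limma adjusted p = 1 for all 4). Etv6, whose p was not among the 4 smallest, had the largest difference of this list, 1.60 ± 0.40 without overlap. Genes of the receptors' ligands, most of which are made outside blood, split 6 higher to 5 lower among 11, with 0 past the threshold and a median of 0.03 (-0.28 after quantile normalization). The lowest p in that list was that of Vtn, whose product vitronectin binds beta-3 integrins, at -1.27 ± 0.56, and 1.02 after median centring (limma adjusted p = 1).

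**Figure D3:**
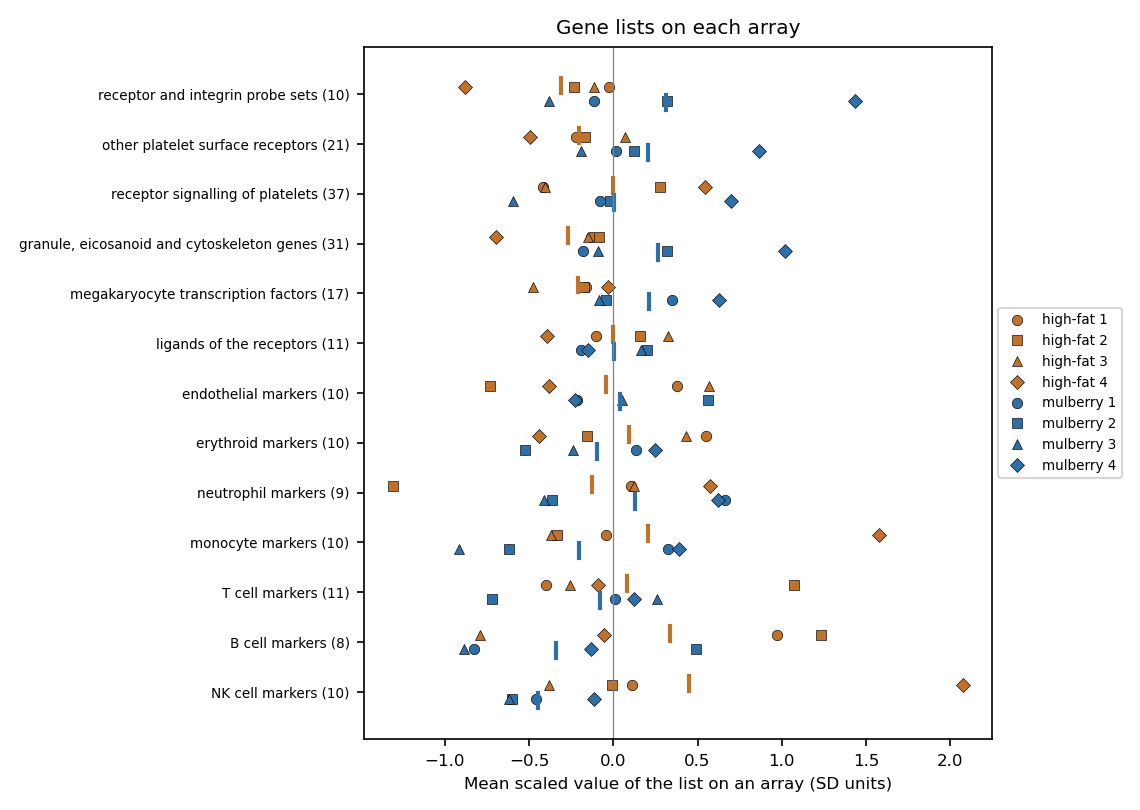
Mean scaled value of each gene list on each array (SD units, number of genes or probe sets in brackets), with high-fat arrays in orange, mulberry arrays in blue and bars for the diet means. High-fat replicate 4 is lowest for the receptors and for the granule genes and highest for the NK cell and monocyte lists. It stands at -0.49 for the other surface receptors, 0.54 for receptor signalling and -0.03 for megakaryocyte transcription factors.

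Of the other blood cell lists, NK cell and monocyte markers also stood apart on high-fat replicate 4. On this array, the lowest for the receptors, the mean over 10 NK cell markers was 2.08 SD units, with the other high-fat arrays between -0.38 and 0.11 and the mulberry arrays between -0.62 and -0.12. The mean over 10 monocyte markers there was 1.58, with the mulberry arrays between -0.92 and 0.39. The other lists stood there at 0.57 for neutrophil, -0.44 for erythroid, -0.09 for T cell and -0.06 for B cell markers. On mulberry replicate 4, the highest for the receptors, the NK cell mean was -0.12, the monocyte mean 0.39, the neutrophil mean 0.62 over 9 genes, the erythroid mean 0.25 over 10, the T cell mean 0.12 and the B cell mean -0.13. The part of these cells in the receptor values was not tested.

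Between the diets, 10 of 10 NK cell markers, 8 of 8 B cell markers and 8 of 10 monocyte markers had lower means with mulberry, against 47.3% of all tested probe sets, and 0 passed the test. After median centring these counts were 8, 5 and 6, where 96.9% of all tested probe sets were higher. With the hybridization controls as a covariate the counts were 9, 7 and 5, and the monocyte median was -0.06. Without both arrays numbered 4 they were 10, 7 and 7, with medians of -0.95, -0.85 and -0.37. For the other lists the counts with a higher mean were 5 of 11 T cell, 6 of 9 neutrophil and 4 of 10 erythroid markers. After quantile normalization they were 4, 1 and 4. Endothelial markers, included because Selp and Vwf are also endothelial genes, split 5 to 5 with a median of 0.001, or -0.60 after quantile normalization. Their means on the arrays ran from -0.73 to 0.57 with high-fat and from -0.23 to 0.56 with mulberry, and mulberry replicate 4 stood at -0.23. No marker was listed at 0, since the lowest value of the table was 5.17.

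The bacterial hybridization controls, meant to be added in equal amounts, had unequal diet means that did not pass a test. Their mean over 18 probe sets was -0.56 ± 0.86 SD units with high-fat and 0.56 ± 0.63 with mulberry (SD, n = 4 each, exact permutation p = 0.114). High-fat replicate 4 stood at -1.07 and mulberry replicate 4 at -0.24. With this mean in the model, the same 9 of 10 receptor probe sets had a positive difference, with a median of 1.15, against -0.02 for all tested. The mean over 24 poly-A control probe sets was -0.49 ± 0.90 SD units with high-fat and 0.49 ± 0.70 with mulberry (SD, n = 4 each, exact permutation p = 0.171). There, high-fat replicates 1 and 4 stood at -1.31 and -1.23, and mulberry replicates 1 and 4 at 1.23 and 0.95. The part of the poly-A controls in the receptor values was not tested.

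**Figure D4:**
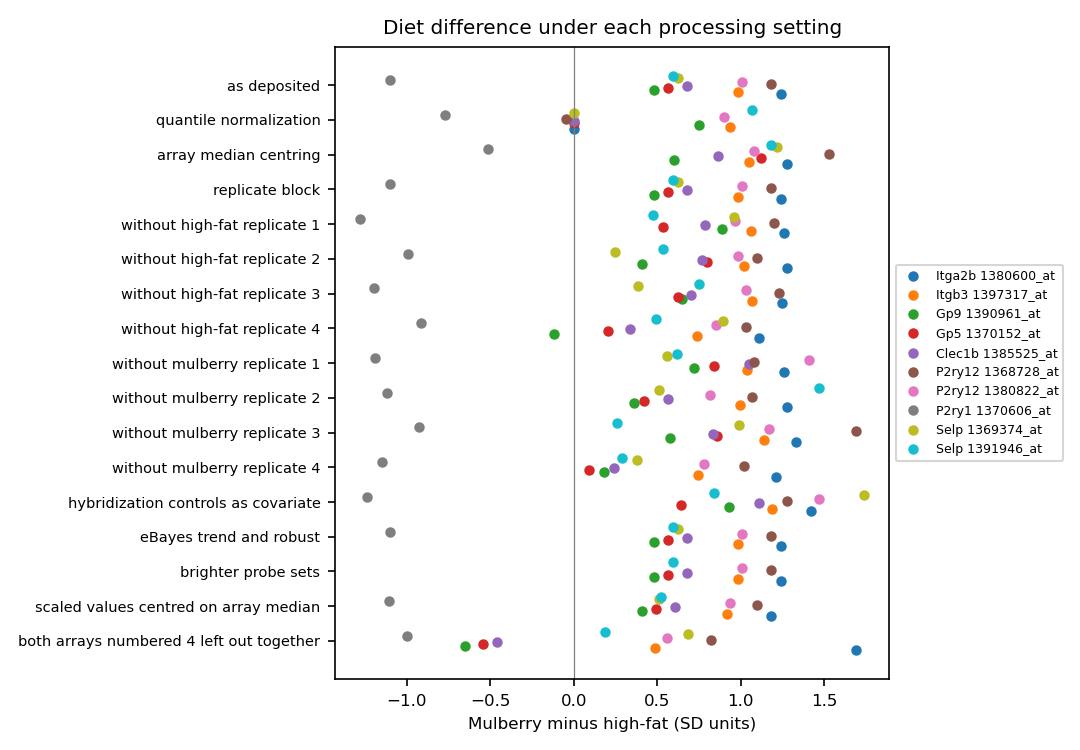
Difference between the diet means (mulberry minus high-fat, SD units) of each probe set, one colour per probe set, under each processing setting listed on the vertical axis. The SD is that of the values and arrays fitted in each setting. P2ry1 is negative in every row that holds it, and Gp9, Gp5 and Clec1b cross to negative when both arrays numbered 4 are left out.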

How the data were processed

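The table deposited by the authors was taken to hold log2 values per probe set, since the arrays share 1 range and hold no zeros. How they were summarised and normalized is not given in the sources used here. Total RNA (200 ng) was labelled with the GeneChip IVT Express kit, per the labels' protocols. Of 31099 probe sets, 57 controls were left out. Names came from the platform annotation, updated by gene number from RefSeq (GRCr8, 20758 of 20826 probe sets naming 1 gene). Another 436 named several genes and 9780 none.

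All 31042 probe sets were fitted together with limma 3.58.1 in R 4.3.3 (eBayes without trend, Benjamini-Hochberg, threshold 0.05), without further normalization. Standard errors are those of the linear model before moderation. The moderation shares 1 prior variance over probe sets whose SDs differ widely. A limma p, and the naming of genes by it, therefore need not follow the size in SD units. Permutation tests over 70 assignments were exact and two-sided (scipy 1.17.1 in Python 3.11.15). Lists kept the probe set of highest mean per gene. Named were every receptor probe set, genes among the 4 of smallest p in a list, the 10 most alike, and Pf4 and Ppbp as defining markers. Etv6 was added for the size of its difference. The members and lists were chosen with earlier results of these data known. The fit was tested on simulated data with the within-group SD of each probe set. It called 16 of 50 probe sets moved by 4 such SDs and 47 of 50 moved by 8. Of 30842 probe sets not moved, 14 were called (0.05%). Alternatives were quantile normalization, median centring, brighter probe sets, a replicate block, a control covariate, trend with robust, and leaving out arrays. Added after seeing the data were centring of scaled values and leaving out both arrays numbered 4. The small number of arrays limits the precision.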

Additional observations from a re-analysis of the deposited data

Results flagged for a closer look

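In 5 of the 20 groups of 4 arrays examined (10 probe sets in 2 diets), the array at the end stood far from the next. The measure was its gap to the nearest other array as a share of the range of the group, above Dixon's 95% critical value, which chance passes in about 1 of 20 groups. High-fat replicate 4 was such a low array for Itga2b (0.925), Itgb3 (0.911) and Clec1b (0.832), and mulberry replicate 4 was such a high array for Itga2b (0.858). For P2ry1 it was mulberry replicate 3, low at 0.855. Probe sets on the same arrays are not independent.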

How the results depend on the processing

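No receptor probe set passed the threshold under any alternative that was run (lowest limma adjusted p = 0.162, after median centring). Over all probe sets 0 were called, except 12 after quantile normalization, none of them a receptor probe set. The lists held 0 called genes, also with all probe sets of a gene, when the erythroid median turned from -0.22 to 0.22. With all probe sets the median of the megakaryocyte transcription factors was 0.34 instead of 0.67. That of the granule, eicosanoid and cytoskeleton genes was 0.52 instead of 0.70, and that of the B cell markers -0.53 instead of -0.82. The direction turned in P2ry12 1368728_at after quantile normalization (-0.0477), and in Gp9 (-0.65), Gp5 (-0.546) and Clec1b (-0.459) without both arrays numbered 4. Leaving out single arrays gave differences from -0.121 to 0.889 for Gp9, turning without high-fat replicate 4. The cause of these turns was not tested. Arrays of the 2 diets were also correlated across probe sets, on scaled values less the diet mean of each probe set. In these remainders, and not in the deposited values, same-numbered arrays had correlations of -0.05, -0.05, 0.25 and 0.16. By this measure 2 of 4 high-fat arrays correlated best with their own number. The values 0.25 and 0.16 were the highest of these correlations between any high-fat and any mulberry array. This does not decide whether the number pairs arrays. With the replicate block 0 probe sets were called (lowest adjusted p of a receptor 0.9). Signal over background is not known for any probe set.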
